A study of Homo sapiens with 8 samples.

Results

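The transcripts of 10 cadherin genes (CDH1, CDH2, CDH3, CDH4, CDH5, CDH6, CDH10, CDH11, CDH12 and CDH13) were followed among the 25411 genes counted by RNA-Seq in BEAS-2B, a bronchial epithelial cell line of human origin that has been immortalised. The 10 genes were chosen by symbol, as members of the classical cadherin family and close relatives. The 8 libraries fell into 4 groups of 2. UT cells were untreated controls. Ni-E cells were exposed for 6 weeks to the soluble salt NiCl2 at 100 µM. Ni-W cells had the same exposure and then grew in medium free of nickel for more than 6 months as a population expanded from 1 randomly chosen single-cell colony, so that Ni-W stands for 1 clone. HCl3 cells were given the treatment text of Ni-W, but for how long they had been without nickel, or how they were related to Ni-W, was not stated. Experiment numbers in the labels were 2 for both Ni-E libraries and 3 and 4 for those of HCl3, and UT and Ni-W had none, so that experiment and group cannot be told apart.

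Cadherins are single-pass adhesion proteins that bind each other between neighbouring cells in a calcium-dependent manner and hold the adherens junction together. Their tails bind catenins, which link the junction to actin, and the set of cadherins on a cell helps to decide which neighbours it adheres to. Airway epithelium is known for E-cadherin (CDH1) and P-cadherin (CDH3), whereas N-cadherin (CDH2) is known from neural and mesenchymal cells, and a shift from CDH1 to CDH2 is a textbook feature of the epithelial-mesenchymal transition.

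Total counts were between 26383920 and 45692298 reads per library. A gene was treated as seen above a floor of 3 reads. These 3 reads made up between 6.57e-06 and 1.14e-05% of a library. Levels are given as RPKM, the reads of a gene per kilobase of transcript and scaled to the mapped reads of the library, and this is the scale on which genes are compared with each other. A gene was called when DESeq2 gave an adjusted P value under 0.05 together with a change of at least 1.5-fold. With 2 libraries per group, an exact permutation test of a single gene cannot give a two-sided P value under 0.333, so the calls depend on the estimate of spread that DESeq2 pools over genes. The epithelial label was checked on 7 markers. The keratins KRT8 and KRT18 were abundant, with KRT8 between 192.19 and 310.3 RPKM, and EPCAM was between 0.95 and 1.79 RPKM, whereas KRT5 stayed at or under 0.03 RPKM and CDH1 at or under 0.11 RPKM in every library.

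CDH2 and CDH13 carried nearly all cadherin transcripts in each group, and the rest of the family changed its make-up. CDH12 was seen in UT and Ni-E and was nearly or wholly without reads in Ni-W and HCl3. CDH4 and CDH11, at or near 0 in UT and Ni-E, were seen in Ni-W and HCl3. CDH3 was higher in Ni-W and HCl3 than in UT, CDH6 and CDH10 were higher in Ni-W, and CDH5 was barely seen in any group. In bulk RNA, fewer cells that express a gene and less RNA per cell cannot be told apart.

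**Figure D1:**
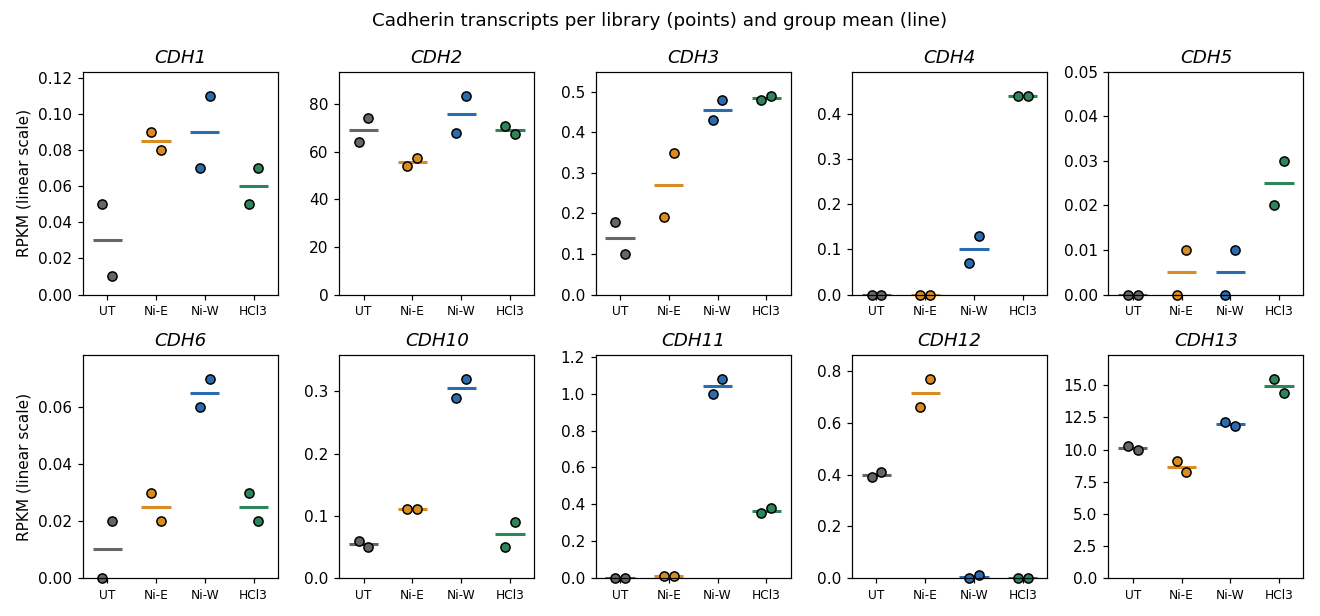
RPKM (vertical axes, linear, each starting at 0 with its own range) of the 10 cadherins in UT, Ni-E, Ni-W and HCl3 cells. Each point is 1 library and each line is the mean of the 2 libraries of a group. CDH11 sat between 1.00 and 1.08 RPKM in Ni-W and at or under 0.01 RPKM in UT and Ni-E, while CDH12 sat between 0.39 and 0.77 RPKM in UT and Ni-E and at or under 0.01 RPKM in Ni-W and HCl3.

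In Ni-E compared with UT, none of the 7 members that could be tested was called by DESeq2 (0 of 7), where 5.8% of the 14478 genes tested were called, 3.75% higher and 2.05% lower. At an unadjusted P value under 0.05 there were 3 members, CDH2, CDH12 and CDH13. The share of all genes under that P value was not counted, so this number has nothing to be weighed against. The edgeR quasi-likelihood test called 1 member, CDH12, and 1044 of 13566 genes. Limma called 0 members, and 485 (1 added to RPKM) or 842 (0.1 added) of 13408 genes. CDH4, CDH5 and CDH11 had too few reads for the test. In Ni-W compared with UT, 6 of 9 members tested were called, 5 higher (CDH3, CDH4, CDH6, CDH10 and CDH11) and 1 lower (CDH12), where 15.7% of 15826 genes were called, 10.9% higher and 4.83% lower. CDH5 was not tested there. In HCl3 compared with UT, 4 of 10 members were called, 3 higher (CDH3, CDH4 and CDH11) and 1 lower (CDH12), where 14.8% of 15766 genes were called, 11.1% higher and 3.74% lower. These comparisons share the UT libraries, so that their calls are not independent of each other. The median log2 fold change of all genes tested was between -0.00 and 0.02 in the 6 comparisons made.

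CDH1 encodes E-cadherin, the main cadherin of adherens junctions in most epithelia. The gene lies at chr16:68771195-68869444 (hg19, plus strand), and its neighbour CDH3 at chr16:68678151-68732957 (plus strand) ends 38.2 kb before it, with no listed gene between them. CDH1 had 10 and 2 reads (UT), 16 and 14 (Ni-E), 17 and 18 (Ni-W) and 9 and 14 (HCl3). These counts are too low for a change of moderate size to be seen, and the log2 fold change of Ni-W over UT was 1.39 ± 1.02 (SE, n = 2 libraries per group) with a DESeq2 adjusted P value of 0.327 and an interval from -0.61 to 3.39. CDH1 was not called in any of the 6 comparisons.

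CDH3 encodes P-cadherin, which is known from basal layers of stratified epithelia. It had 33 and 13 reads (UT), 31 and 58 (Ni-E), 94 and 71 (Ni-W) and 85 and 90 (HCl3). Every Ni-W and HCl3 library lay above both UT libraries on the RPKM scale, 0.43 and 0.48 RPKM for Ni-W and 0.48 and 0.49 RPKM for HCl3 against 0.18 and 0.10 RPKM in UT, and the groups did not overlap. The log2 fold change over UT was 1.60 ± 0.50 (SE, n = 2) in Ni-W, with a DESeq2 adjusted P value of 0.00606, and 1.69 ± 0.48 (SE, n = 2) in HCl3, with an adjusted P value of 0.00216. The Ni-W call was lost without UT replicate 2 (adjusted P value 0.127), Ni-W replicate 1 (0.205) or Ni-W replicate 2 (0.248). The HCl3 call was lost without UT replicate 2 (adjusted P value 0.0667), HCl3 replicate 1 (0.187) or HCl3 replicate 2 (0.209). With GC and length correction the log2 fold change over UT was 1.28 in Ni-W and 1.32 in HCl3, and both stayed called. With a replicate block added to that correction, both calls were lost (DESeq2 adjusted P values 0.0921 and 0.0829). Between HCl3 and Ni-W the log2 fold change of CDH3 was 0.09 with an interval from -0.56 to 0.75.

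CDH2 encodes N-cadherin, which is abundant in neurons, heart muscle and many mesenchymal cells, and lies at chr18:25530930-25757445 (hg19, minus strand). It was the most abundant member in each library, at 64.08 and 74.17 RPKM (UT), 54.05 and 57.54 (Ni-E), 67.97 and 83.53 (Ni-W) and 70.7 and 67.36 (HCl3). CDH2 made up between 80.7 and 87.5% of the summed RPKM of the 10 members. Both Ni-E libraries lay below all 6 of the others, and the UT, Ni-W and HCl3 ranges overlapped. Ni-E compared with UT gave a log2 fold change of -0.37 ± 0.11 (SE, n = 2) with a DESeq2 adjusted P value of 0.0171, which passed the P value threshold at 1.29-fold and was therefore not called. The log2 fold change over UT was 0.10 in Ni-W, with an interval from -0.15 to 0.34, and -0.06 in HCl3, with an interval from -0.25 to 0.14. Over Ni-E, Ni-W gave 1.36-fold (adjusted P value 0.000209) and HCl3 1.23-fold (adjusted P value 0.000465), both short of 1.5-fold. With GC and length correction these log2 fold changes fell to 0.17 (adjusted P value 0.179) and 0.09 (adjusted P value 0.371), that of HCl3 over UT was -0.20 (adjusted P value 0.00472), and the adjusted P value of Ni-E compared with UT was 0.0248, or 0.113 with the repeat suffix of the labels alone as a replicate block. Without Ni-W replicate 1, CDH2 was called between Ni-W and Ni-E at a log2 fold change of 0.59. Per library, the RPKM of CDH2 was between 601 and 7420 times that of CDH1, a ratio that rests on the few CDH1 reads.

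CDH4 encodes R-cadherin, a close relative of CDH2 known from retina, brain and muscle, and lies at chr20:60174817-60515673 (hg19, plus strand). It had 0 reads in all 4 libraries of UT and Ni-E, 22 and 28 reads in Ni-W, and 117 and 122 reads in HCl3. The groups did not overlap, and HCl3 stood above Ni-W. Set against 3 reads per library, the excess of CDH4 over UT was at least 6.95-fold in Ni-W and at least 31.6-fold in HCl3, with DESeq2 adjusted P values of 0.000446 and 3.22e-08. Over Ni-E it was at least 7.96-fold higher in Ni-W and at least 36.2-fold higher in HCl3, with adjusted P values of 0.000243 and 1.27e-08. Without Ni-W replicate 2, the call of CDH4 was lost in Ni-W compared with UT (adjusted P value 0.103) and with Ni-E (0.0747). It was also lost in Ni-W compared with UT with the replicate block (adjusted P value 0.196, or 0.197 with GC and length correction added). The HCl3 calls held without each library in turn.

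The remaining classical members are type II cadherins, which pair through a differently built adhesive surface from that of type I. CDH11 (OB-cadherin), known from osteoblasts, fibroblasts and other mesenchymal cells, lies at chr16:64980683-65155919 (hg19, minus strand). It had 0 and 0 reads (UT), 1 and 1 (Ni-E), 187 and 137 (Ni-W) and 53 and 59 (HCl3). Both washed-out groups stood apart from UT and Ni-E without overlap, and Ni-W stood above HCl3. The excess of CDH11 over UT was at least 42.7-fold in Ni-W and at least 14.8-fold in HCl3, with DESeq2 adjusted P values of 5.17e-09 and 4.31e-06. Over Ni-E the ratio was 145 in Ni-W, with a 95% counting interval from 39.9 to 1210, and 50.9 in HCl3, with an interval from 13.8 to 426. With the replicate block, the adjusted P value in Ni-W compared with UT was 0.054.

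CDH12 (brain cadherin, or N-cadherin 2), known from neurons, spans chr5:21750973-22853731 (hg19, minus strand), and the listed gene PMCHL1 on the opposite strand within it had 0 reads in every library. CDH12 had 71 and 52 reads (UT) and 110 and 128 (Ni-E), but 0 and 1 (Ni-W) and 0 and 0 (HCl3). The washed-out libraries lay below all UT and Ni-E libraries. The ratio of UT over Ni-W was 152, with a 95% counting interval from 26.7 to 6040, and the DESeq2 adjusted P value was 1.04e-05. In HCl3, CDH12 was at least 25.1-fold lower than in UT, with an adjusted P value of 2.39e-07. Compared with Ni-E, the ratio of Ni-E over Ni-W was 265 (counting interval from 47.2 to 10500) and the level in HCl3 was at least 43.6-fold lower, with adjusted P values of 2.07e-07 and 3.71e-09. With the replicate block, the adjusted P value in HCl3 compared with Ni-E was 0.0581. The calls of CDH12 in Ni-W and HCl3 held without each library in turn. Between Ni-E and UT the log2 fold change was 0.79 ± 0.36 (SE, n = 2), with a DESeq2 adjusted P value of 0.147 and an edgeR adjusted P value of 0.0475.

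**Figure D2:**
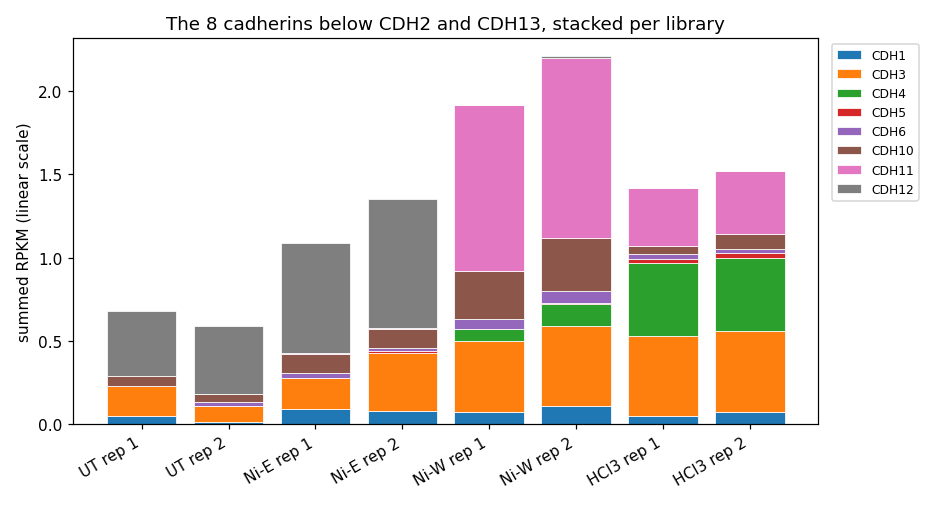
Summed RPKM (vertical axis, linear from 0) of the 8 members below CDH2 and CDH13, stacked by gene for each of the 8 libraries. The sum was 0.68 and 0.59 RPKM (UT), 1.09 and 1.35 (Ni-E), 1.92 and 2.21 (Ni-W) and 1.42 and 1.52 (HCl3). The CDH12 part is nearly or wholly missing in Ni-W and HCl3, where CDH11 and CDH4 parts appear.

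CDH10, another cadherin of brain, lies near CDH12 at chr5:24487209-24645085 (hg19, minus strand), and it was high in Ni-W alone. It had 8 and 5 reads (UT), 14 and 14 (Ni-E), 51 and 38 (Ni-W) and 7 and 13 (HCl3). Both Ni-W libraries lay above the other 6. The log2 fold change over UT was 2.49 ± 0.73 (SE, n = 2) in Ni-W, with a DESeq2 adjusted P value of 0.00342, and 0.34 with an interval from -1.81 to 2.49 in HCl3. The Ni-W call was lost without UT replicate 1 (adjusted P value 0.0592), Ni-W replicate 1 (0.186) or Ni-W replicate 2 (0.202). CDH10 in Ni-W compared with Ni-E had a log2 fold change of 1.52 ± 0.64 (SE, n = 2) with an adjusted P value of 0.046, and this call was lost without Ni-E replicate 1 (0.197), Ni-E replicate 2 (0.195), Ni-W replicate 1 (0.345) or Ni-W replicate 2 (0.404), and with the replicate block (0.198).

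CDH6 (K-cadherin), known from kidney and its development, lies at chr5:31193762-31329253 (hg19, plus strand). It had 1 and 5 reads (UT), 9 and 7 (Ni-E), 27 and 20 (Ni-W) and 11 and 6 (HCl3). Ni-W was above the other groups without overlap, and the log2 fold change over UT was 2.56 ± 1.06 (SE, n = 2) with a DESeq2 adjusted P value of 0.0496. This call sat at the threshold and was lost without UT replicate 1 (adjusted P value 0.392), UT replicate 2 (0.0558), Ni-W replicate 1 (0.425) or Ni-W replicate 2 (0.438), and with the replicate block (0.0976) or GC and length correction (0.0549). The RPKM of CDH6 was at most 0.07 in any library.

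CDH5 encodes VE-cadherin, the cadherin of endothelial junctions, and lies at chr16:66400525-66438689 (hg19, plus strand). It had 0 and 0 reads (UT), 0 and 1 (Ni-E), 1 and 2 (Ni-W) and 3 and 6 (HCl3). In HCl3 compared with UT, the only comparison against UT in which it could be tested, the DESeq2 adjusted P value was 0.204. Of 8 endothelial markers, CDH5 included, those with more than 3 reads in both libraries numbered 1 (UT), 3 (Ni-E), 5 (Ni-W) and 5 (HCl3). The summed level of all 8 was 0.27 to 0.33 RPKM in UT, 0.47 to 0.62 (Ni-E), 0.72 to 0.79 (Ni-W) and 0.97 to 1.02 (HCl3). Most of it was TIE1 and ESAM. TIE1 was at 0.22 and 0.15 RPKM (UT), 0.1 and 0.23 (Ni-W) and 0.43 and 0.42 (HCl3). ESAM was at 0.04 and 0.05 RPKM (UT), 0.37 and 0.37 (Ni-W) and 0.35 and 0.31 (HCl3). KDR, TEK and CDH5 stayed at or under 0.04 RPKM. PECAM1 was at 0 reads in UT and HCl3, and at most 0.01 RPKM elsewhere.

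CDH13 (T-cadherin, or H-cadherin) differs from the others in that it has no transmembrane part and is held in the membrane by a lipid anchor. It lies at chr16:82660399-83830215 (hg19, plus strand), where the listed genes LOC101928446, MIR3182 and MIR8058 on the same strand and LOC101928417 on the opposite strand overlap it, and reads within an overlap cannot be assigned with certainty. CDH13 was at 10.28 and 9.98 RPKM (UT), 9.1 and 8.24 (Ni-E), 12.14 and 11.86 (Ni-W) and 15.5 and 14.39 (HCl3). The 4 groups did not overlap, and both HCl3 libraries were the highest. HCl3 compared with Ni-E gave a log2 fold change of 0.79 ± 0.11 (SE, n = 2) with a DESeq2 adjusted P value of 1.61e-11, and this was called. HCl3 compared with UT passed the P value threshold (adjusted P value 3.02e-05) at 1.42-fold and was not called. Ni-W over Ni-E gave 1.4-fold with an adjusted P value of 0.000334, which again fell short of the fold threshold, and GC and length correction gave a log2 fold change of 0.24 with an adjusted P value of 0.0886. CDH13 made up between 11.8 and 17.7% of the summed RPKM of the 10 members.

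Changes after the removal of nickel were also read directly against Ni-E. In Ni-W compared with Ni-E, 4 of 9 members tested were called (CDH4, CDH10 and CDH11 higher, CDH12 lower), where 20.5% of 15989 genes were called. In HCl3 compared with Ni-E, 4 of 10 were called (CDH4, CDH11 and CDH13 higher, CDH12 lower), where 17.1% of 15953 genes were called. These comparisons share the Ni-E libraries.

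HCl3 and Ni-W were called different in 3 of the 8 members tested, where 4.77% of 14956 genes were called. CDH4 was the higher one in HCl3, at a log2 fold change of 2.23 ± 0.41 (SE, n = 2) and a DESeq2 adjusted P value of 2.37e-06. CDH11 was lower in HCl3, at -1.52 ± 0.31 (SE, n = 2) with an adjusted P value of 2.4e-05, and CDH10 was lower in HCl3, at -2.15 ± 0.64 (SE, n = 2) with an adjusted P value of 0.00754. The CDH4 and CDH11 differences held without each library in turn, whereas that of CDH10 was lost without Ni-W replicate 1 (adjusted P value 0.179), Ni-W replicate 2 (0.201), HCl3 replicate 1 (0.304) or HCl3 replicate 2 (0.131), and with the replicate block (0.0919). CDH13 passed the P value threshold at 1.24-fold (adjusted P value 0.00748, and 0.124 with the replicate block). CDH5 and CDH12 could not be tested between these groups.

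**Figure D3:**
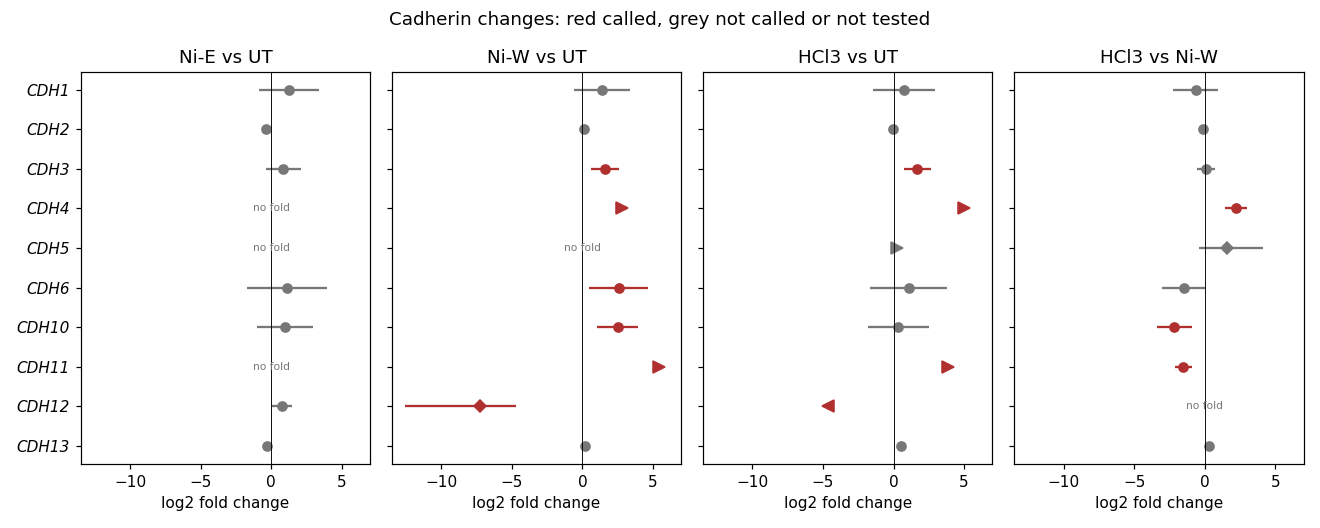
Log2 fold change (horizontal axes) of the 10 cadherins in 4 comparisons. Circles are DESeq2 estimates with 95% intervals, triangles are lower bounds set against 3 reads per library and point away from the bound, and diamonds are ratios of counts with 95% counting intervals, used where a group held 1 to 3 reads. Red marks members that were called, and "no fold" marks pairs of groups that were both at or under 3 reads per library. CDH4, CDH10 and CDH11 are the called members between HCl3 and Ni-W, with CDH4 at 2.23 on the right and CDH10 at -2.15 and CDH11 at -1.52 on the left.

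The order of the members by mean RPKM began with CDH2 and CDH13 in each group, and every library of CDH2 lay above every library of CDH13 and every library of CDH13 above the next member. The third place was held by CDH12 in UT (0.4 RPKM) and Ni-E (0.715 RPKM), by CDH11 in Ni-W (1.04 RPKM) and by CDH3 in HCl3 (0.485 RPKM). In UT, neighbours in the order from CDH10 at 0.055 RPKM downwards were not separated by their libraries. In Ni-W, CDH4 (0.1 RPKM), CDH1 (0.09 RPKM) and CDH6 (0.065 RPKM) overlapped from one place to the next. In HCl3, CDH10 (0.07 RPKM) and CDH1 (0.06 RPKM) overlapped, and so did CDH5 and CDH6, both at 0.025 RPKM. Since the deposited RPKM values carry 2 decimals, such low levels are coarse.

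The promoters of CDH4, which gained reads, and CDH12, which lost them, are shown with that of CDH2, the abundant member, so that the sequences upstream can be compared. The RefSeq table (GRCh38.p14) held starts for 4 members, CDH2, CDH4, CDH10 and CDH12. It held none for CDH11, which had more reads than CDH4 in Ni-W. For CDH4 and CDH12 the start printed is the one whose distance to the end of the gene, 340 and 1102 kb, equals the span of the gene in the hg19 files. For CDH2 it is the start farther upstream, at 244 kb against 226 kb in the files, which is not an exact match. Each sequence is the 250 bases upstream of the start, written 5′ to 3′ on the strand of the gene, at chr20:61599511-61599760 (plus strand) for CDH4, chr5:22853345-22853594 (minus strand) for CDH12 and chr18:28177131-28177380 (minus strand) for CDH2. Capitals mark the hypoxia response core ACGTG or GCGTG on either strand, searched because nickel is known to stabilise hypoxia-inducible factors.
CDH4: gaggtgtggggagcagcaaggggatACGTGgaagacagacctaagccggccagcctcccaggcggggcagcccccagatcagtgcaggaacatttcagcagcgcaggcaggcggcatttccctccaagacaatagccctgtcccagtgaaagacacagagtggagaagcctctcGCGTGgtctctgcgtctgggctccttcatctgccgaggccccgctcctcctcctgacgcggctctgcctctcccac
CDH12: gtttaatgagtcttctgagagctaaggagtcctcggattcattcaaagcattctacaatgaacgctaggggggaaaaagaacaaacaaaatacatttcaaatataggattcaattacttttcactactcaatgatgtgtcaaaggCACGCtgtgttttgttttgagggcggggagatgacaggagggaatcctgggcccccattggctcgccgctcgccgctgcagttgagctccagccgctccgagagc
CDH2: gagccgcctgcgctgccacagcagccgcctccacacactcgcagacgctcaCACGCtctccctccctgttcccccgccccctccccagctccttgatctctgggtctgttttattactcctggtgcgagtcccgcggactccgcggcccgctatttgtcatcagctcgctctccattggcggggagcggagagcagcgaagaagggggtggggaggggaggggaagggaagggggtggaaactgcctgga

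The core stood at -225 and -76 in CDH4, at -105 in CDH12 and at -199 in CDH2, counted back from the start to the first base of the match. It occurs in the same 250 bases of 43.2% of the 35116 promoters in the table, so that its presence in these members is common, and ACGTG is also part of the palindrome CACGTG. The E-box CACCTG or CAGGTG, which ZEB and SNAI repressors are known to bind, was found in none of the 3 printed sequences and in 17.5% of all promoters. The TATA box TATAAA, on either strand, was not in them either, against 10.7% of all promoters. No matches of different motifs overlapped in them. The dinucleotide CG occurred 12 times in CDH4, 10 times in CDH12 and 17 times in CDH2, where the median over all promoters was 11. Other starts of these genes, not printed here, did hold matches. The E-box stood at -16 of another CDH4 start and the TATA box at -32 of another CDH2 start. At other CDH12 starts the TATA box stood at -158 and the hypoxia response core at -75. The single CDH10 promoter held 10 CG and none of the 3 motifs. Gene-level counts do not show which start was used, and a match of letters is not evidence of binding.

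Catenins bind the tails that most of these cadherins share. CTNNB1 (beta-catenin) was between 112.99 and 157.13 RPKM and CTNNA1 (alpha-catenin), the link to actin, between 130.75 and 159.4 RPKM in all libraries, and neither was called against UT. Of the 9 catenins listed, 6 were tested in each comparison, and JUP was the 1 catenin called in Ni-W and in HCl3 compared with UT, where 15.7 and 14.8% of all genes tested were called. JUP encodes plakoglobin, which serves both adherens junctions and desmosomes. It was at 14.65 and 13.92 RPKM (UT), 21.36 and 22.2 (Ni-E), 39.97 and 37.84 (Ni-W) and 26.22 and 26.14 (HCl3), with no overlap between groups. The log2 fold change over UT was 1.42 ± 0.11 (SE, n = 2) in Ni-W and 0.82 ± 0.10 (SE, n = 2) in HCl3, with DESeq2 adjusted P values of 1.08e-36 and 4.98e-14. In Ni-E it was 0.55, or 1.47-fold, and not called. The catenin called in Ni-E compared with UT was ARVCF, which binds the part of the tail next to the membrane, at 3.07 and 3.5 RPKM against 2.0 and 1.83 RPKM in UT. The median log2 fold change of the tested catenins was 0.14 in Ni-W and 0.13 in HCl3, against 0.01 for all genes in both.

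Of 11 adaptors and actin linkers, all of which were tested, 2 were higher in Ni-W than in UT, where 10.9% of all genes tested were. IQGAP1, a scaffold at junctions and the actin cortex, was at 57.75 and 65.43 RPKM in UT, 45.1 and 43.98 RPKM in Ni-E, and 97.06 and 95.66 RPKM in Ni-W, and its Ni-W change was 1.52-fold (adjusted P value 5.13e-08). CTNNBIP1, which keeps beta-catenin from TCF factors, exceeded its UT level by 1.59-fold in Ni-W and by 1.68-fold in Ni-E (adjusted P values 0.000444 and 0.000451). Both genes were also above UT in HCl3, IQGAP1 by 1.33-fold and CTNNBIP1 by 1.48-fold (DESeq2 adjusted P values 0.000139 and 0.00202). These HCl3 changes fell short of 1.5-fold and were not called. LIMA1, an actin-binding protein at junctions, was the member of the list that fell in Ni-E, at 66.66 and 57.01 RPKM against 83.75 and 98.42 RPKM in UT. Over the list, the median log2 fold change was 0.06 for both washed-out groups.

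Factors known to repress CDH1 were read beside it, although CDH1 was near the limit of detection in each group. Of 9 listed, 8 were tested, and 2 were higher in Ni-W than in UT (SNAI2 and ZEB1), 4 in HCl3 (SNAI1, SNAI2, ZEB1 and TWIST2), and none was lower in either group, where 10.9% of all genes tested were called higher in Ni-W and 11.1% in HCl3. In Ni-E, ZEB1 was higher and ZEB2 lower, where 3.75% of all genes were called higher and 2.05% lower. SNAI2 (Slug) was at 0.32 and 0.26 RPKM (UT), 0.6 and 0.58 (Ni-E), 1.1 and 1.58 (Ni-W) and 1.42 and 1.38 (HCl3). Its log2 fold change over UT was 2.15 ± 0.45 (SE, n = 2) in Ni-W and 2.19 ± 0.42 (SE, n = 2) in HCl3, with DESeq2 adjusted P values of 1.75e-05 and 2.12e-06. SNAI1 (Snail), at 0.33 and 0.48 RPKM in UT and 1.21 and 1.19 RPKM in HCl3, was 2.85-fold higher in HCl3 (adjusted P value 0.00443), and TWIST2 was 2.59-fold higher there (adjusted P value 0.00108). ZEB1, named for completeness after its values were seen, was at 0.99 and 1.25 RPKM (UT), 2.1 and 1.7 (Ni-E), 2.21 and 2.29 (Ni-W) and 2.51 and 2.36 (HCl3). The list's median log2 fold change was 0.53 in Ni-W and 0.82 in HCl3.

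Factors known to favour CDH1 moved in both directions. Of 6 listed, 3 were tested, and in each washed-out group 1 was higher than in UT and 1 lower, where 10.9% (Ni-W) and 11.1% (HCl3) of all genes tested were higher and 4.83% and 3.74% lower. ELF3, an epithelial ETS factor, was at 4.66 and 3.27 RPKM (UT), 2.29 and 6.38 (Ni-E), 17.87 and 14.51 (Ni-W) and 9.18 and 10.33 (HCl3), and was higher than in UT by 3.99-fold in Ni-W and 2.37-fold in HCl3 (adjusted P values 1.28e-28 and 1.01e-11). GRHL1, a grainyhead-like factor, was lower than in UT by 2.68-fold in Ni-W and 2.07-fold in HCl3 (adjusted P values 0.000347 and 0.00749). GRHL2 was listed at 0 RPKM in every library.

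Among 6 proteases that process or shed cadherins, 5 were tested, and 1 was called against UT in each washed-out group, where 15.7% of all genes tested were called in Ni-W and 14.8% in HCl3. ADAM10, which sheds the outer part of CDH1 and CDH2, was at 28.56 and 34.02 RPKM (UT), 25.25 and 25.87 (Ni-E), 53.17 and 55.94 (Ni-W) and 49.03 and 44.56 (HCl3). Its change over UT was 1.7-fold in Ni-W (adjusted P value 5.18e-10) and 1.44-fold in HCl3, which was not called. FURIN, which removes the propeptide of classical cadherins, was 1.58-fold higher in HCl3 than in UT (adjusted P value 8.61e-09) and 1.49-fold in Ni-W, which was not called.

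**Figure D4:**
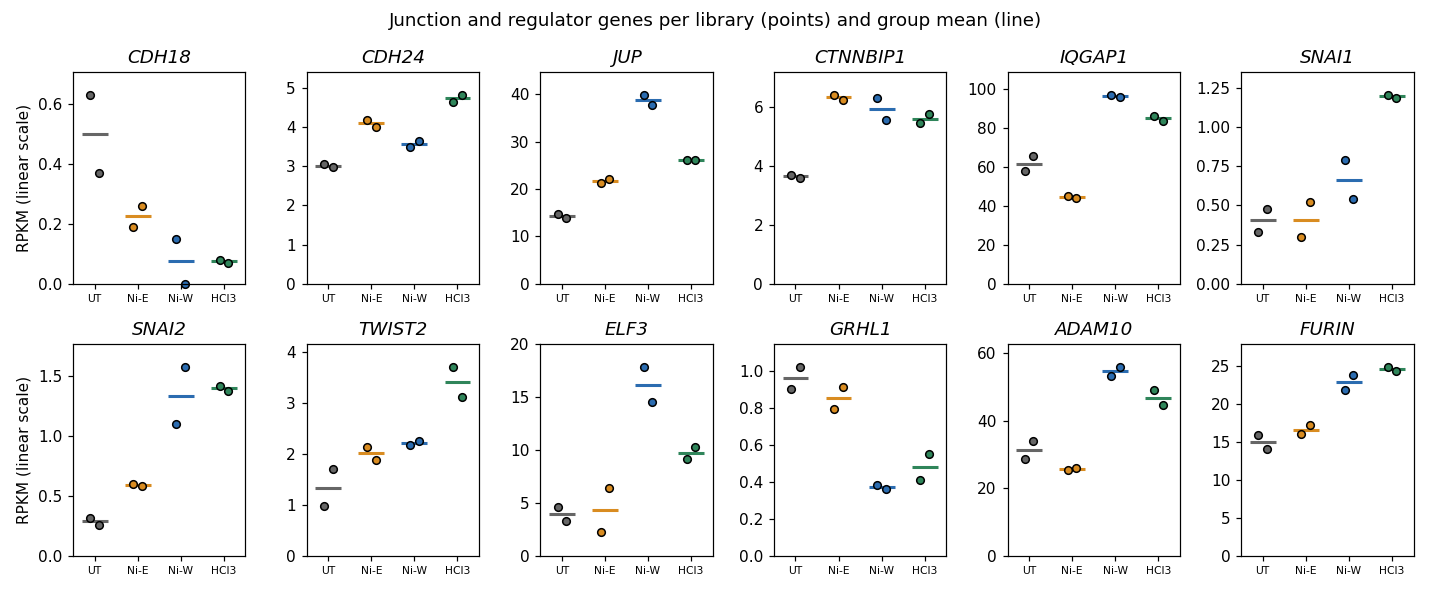
RPKM (vertical axes, linear, each starting at 0 with its own range) of 12 genes from the lists of other cadherins, catenins, adaptors, CDH1 regulators and proteases in UT, Ni-E, Ni-W and HCl3 cells. Each point is 1 library and each line the mean of a group. JUP stood at 39.97 and 37.84 RPKM in Ni-W against 14.65 and 13.92 RPKM in UT, and GRHL1 was below its UT libraries in Ni-W and HCl3.

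Of 13 other cadherins listed, most had hardly any reads. CDH24 was the one at a level above 1 RPKM, at 3.05 and 2.98 RPKM in UT and 4.64 and 4.84 RPKM in HCl3, and was 1.51-fold higher in HCl3 (DESeq2 adjusted P value 0.00137). CDH18, on the same chromosome arm as CDH12, had 80 and 31 reads (UT), 21 and 30 (Ni-E), 22 and 0 (Ni-W) and 10 and 8 (HCl3). It was lower in HCl3 than in UT by a log2 fold change of -2.84 ± 0.63 (SE, n = 2) with an adjusted P value of 6.55e-05. In Ni-W the libraries disagreed, and the log2 fold change was -2.81 ± 2.28 (SE, n = 2) with an adjusted P value of 0.387. CDH9, between CDH10 and CDH6, had 0 reads in every library.

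The genes around the members were also read, within 5 Mb each way and with a mean count of at least 50. Over all genes tested, 10.9% were called higher than in UT and 4.83% lower in Ni-W, and 11.1% higher and 3.74% lower in HCl3. Around CDH11, the median log2 fold change of 61 such genes was -0.11 for Ni-W compared with UT, with 3 higher and 2 lower. Around CDH4, the 58 neighbours had a median of 0.30 in Ni-W, with 10 higher, and of 0.23 in HCl3, with 12 higher, and none was lower in either. Around CDH6, the 21 neighbours had a median of 0.33 in Ni-W, with 6 higher, and of 0.15 in HCl3, with 3 higher, and again none was lower. Around CDH12 only 1 such gene was found, and its log2 fold change over UT, 0.10 for Ni-W and -0.12 for HCl3, was not called. The part of the surroundings in the changes of the members was not tested.

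Cell type markers were read beside these changes. The epithelial sum, nearly all KRT7, KRT8 and KRT18, was above UT in both washed-out groups. The mesenchymal sum, nearly all VIM and COL1A1, was below UT in Ni-W but not in HCl3. The summed level of the 7 epithelial markers was 602 to 636 RPKM (UT), 579 to 794 (Ni-E), 947 to 972 (Ni-W) and 935 to 996 (HCl3), and 4, 5, 6 and 6 of them had more than 3 reads in both libraries. The summed level of 8 mesenchymal markers was 1830 to 1880 RPKM (UT), about 1180 in both Ni-E libraries, 1060 to 1260 (Ni-W) and 1980 to 2010 (HCl3), and 4, 5, 5 and 5 of them had more than 3 reads in both libraries, with DCN at 0 in each group and COL3A1 at 0 in UT and Ni-E. Of 5 neural markers, TUBB3 made up nearly all of a sum between 28.2 and 42.2 RPKM, STMN2 had 0 reads in each group, and 2, 2, 3 and 2 had more than 3 reads in both libraries. The part of these markers in the changes of the cadherins was not tested.

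For the 3 members with a group mean of at least 1 RPKM, the genes most alike across the 8 libraries were found by Pearson's r on log2(RPKM + 0.1) among 12054 genes. These are descriptions over 4 groups of 2 libraries. CDH11 was most like ROBO1 (r = 0.998), a receptor of SLIT proteins, S1PR3 (r = 0.997), a receptor of sphingosine-1-phosphate, and PTPRN (r = 0.997). ROBO1 had a mean RPKM of 0 (UT), 0.01 (Ni-E), 5.46 (Ni-W) and 1.36 (HCl3). CDH13 was most like DOCK2 (r = 0.991), an activator of Rac, NRP1 (r = 0.983), a semaphorin and VEGF co-receptor, and ARHGEF6 (r = 0.983). CDH2 was most like SON (r = 0.987), a splicing cofactor, MAN1A2 (r = 0.977) and ZKSCAN1 (r = 0.976).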

How the data were processed

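RNA-Seq was performed by the authors on 8 BEAS-2B libraries. Per the study's methods, RNA came from 2 biological replicates. The labels do not say that replicates were separate cultures, in which case P values measure only the spread between these samples. The authors aligned reads to hg19 with STAR (version 2.4 in the submitters' processing notes), removed multiply aligned reads and deposited read counts and RPKM values per RefSeq gene from BioWardrobe. Use of strand was not given in the sources used here, so sense and antisense reads cannot be told apart.

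The deposited counts of 25411 genes were tested pairwise with DESeq2 1.42.0 (R 4.3.3, median-of-ratios size factors, Wald statistic tested on both sides, filtering on mean count, P values adjusted over all genes by Benjamini-Hochberg, 4 libraries per fit). Members not tested were those that independent filtering removed or that had no reads. Alternatives were edgeR 4.0.16, TMM size factors, all 8 libraries in 1 fit, a mean count of at least 10, other fold thresholds, limma 3.58.1 with 1 or 0.1 added to RPKM before taking log2, GC and length correction, a replicate block and leaving out each library. Lower bounds set a group with 0 reads at 3 reads per library and took the reads of the other group as exact. Counting intervals cover counting error only. Neither they nor the bounds cover the spread between libraries. On simulated data for Ni-W compared with UT over 25411 genes, DESeq2 recovered 89 of 100 genes changed 2-fold and 99 of 100 changed 4-fold, with 0 false calls. Without 1 library it recovered 68 and 97 of 100, with 1 false call. With a GC trend planted it recovered 68 and 100 of 100 with 74 false calls. After the trend was removed it recovered 87 and 100 of 100 with 2 false calls. Neither recovery nor false calls were broken down by read count. They therefore do not show how reliable the calls of members with few reads are, such as CDH4, CDH6 and CDH10. In the data, the log2 fold change correlated with GC content across genes, which are not independent, at a Spearman rho of 0.394 in Ni-E compared with UT (11544 genes), 0.281 in HCl3 compared with UT (11848 genes) and 0.381 in HCl3 compared with Ni-W (12126 genes). The rho was -0.178 in Ni-W compared with Ni-E (11938 genes). It was 0.0471 in Ni-W compared with UT (11838 genes) and 0.00641 in HCl3 compared with Ni-E (11944 genes).

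Members, gene lists and tests were chosen with earlier results of these data known. Beside the members, up to 3 called genes per list with the largest change in Ni-W or HCl3 compared with UT were named. ARVCF, LIMA1, ZEB1, ZEB2, CTNNB1, CTNNA1, GRHL2 and CDH9 were named after their values were seen. Promoters came from RefSeq (GRCh38.p14).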

Additional observations from a re-analysis of the deposited data

Results flagged for a closer look

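The levels of 3 cadherins differed between HCl3 and Ni-W by the DESeq2 test of these groups against each other, which compares the groups without the shared UT libraries. The log2 difference of HCl3 minus Ni-W was 2.23 for CDH4 (22 and 28 reads in Ni-W, 117 and 122 in HCl3), -1.52 for CDH11 (187 and 137 reads in Ni-W, 53 and 59 in HCl3) and -2.15 for CDH10 (51 and 38 reads in Ni-W, 7 and 13 in HCl3). The differences of CDH4 and CDH11 stayed called without each library in turn and with the replicate block, whereas that of CDH10 was called under 6 of 13 alternatives. Ni-W stands for 1 clone, and the labels give experiment numbers for HCl3 but none for Ni-W. Whether the groups came from the same experiment was therefore not stated, and clone, experiment and time without nickel cannot be told apart.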

How the results depend on the processing

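No called value changed direction under the alternatives run. Values near 0 that were not called did change sign. CDH2 in Ni-W compared with UT went from 0.10 to -0.13 with GC and length correction, with or without the replicate block, to -0.01 without UT replicate 1 and to -0.06 without Ni-W replicate 2. CDH2 went from -0.06 to 0.05 in HCl3 compared with UT without UT replicate 2, and from -0.15 to 0.01 in HCl3 compared with Ni-W without Ni-W replicate 2. CDH1 in Ni-W compared with Ni-E went from 0.11 to -0.17 with GC and length correction, to -0.19 with the block added and to -0.24 without Ni-W replicate 2. Of 567 values of single members under alternatives other than fold thresholds, 510 kept their side of the threshold, 54 lost a call and 3 gained one. These values cover the called members, and CDH1, CDH2, CDH3, CDH12 and CDH13 wherever tested. Gains by other members are outside this count, such as CDH6, which edgeR called in Ni-W compared with Ni-E. The 0 members called in Ni-E compared with UT became 1 with edgeR (CDH12) and 1 with no fold threshold (CDH2). Of all genes tested, these settings called 1044 of 13566 and 1679 of 14478. With limma on log2(RPKM + 1), a scale that shrinks the folds of genes under 1 RPKM, the counts fell from 6 to 1 in Ni-W compared with UT, from 4 to 0 in HCl3 compared with UT, from 4 to 2 in Ni-W compared with Ni-E, from 4 to 2 in HCl3 compared with Ni-E and from 3 to 0 in HCl3 compared with Ni-W. Over all genes, log2(RPKM + 1) gave 1513 calls of 13789 in Ni-W compared with UT, where the main fit gave 2484 of 15826. In HCl3 compared with UT it gave 1403 of 13774 (main fit 2333 of 15766). In Ni-W compared with Ni-E it gave 2098 of 13916 (main fit 3276 of 15989). With log2(RPKM + 0.1) the count was 5 in Ni-W compared with UT, since CDH6 was lost, and 2653 of 13789 genes were called. Leaving out 1 library gave 2 to 4 members in Ni-W compared with UT (2 without Ni-W replicate 2 and 3 without Ni-W replicate 1) and 2 to 4 in Ni-W compared with Ni-E (2 without Ni-W replicate 2). In each of these fits fewer of all genes were called as well than with every library. A group left with 1 library was assumed to vary like the other. The repeat suffix of the labels was used as a replicate block, although the samples share only that suffix. Deviations of libraries with the same suffix correlated at 0.212 in Ni-W and UT, and at -0.145 to 0.00833 in the other pairs. The block left 3 members in Ni-W compared with UT (CDH3, CDH10 and CDH12), and 3 with GC and length correction added (CDH10, CDH11 and CDH12). Of 14784 genes tested, 2134 were called with the block and 2615 with the correction added. The crossed pairing, added after the data were seen for Ni-E and HCl3 compared with UT, gave 0 and 4 members. It called 632 of 13462 and 1880 of 15077 genes. CDH6 in Ni-W was called under 4 of 13 alternatives. Depth limits CDH1, CDH5 and CDH6, with at most 27 reads in a library.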
